A study of Sus scrofa with 75 samples.

Results

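Peripheral blood mononuclear cells (PBMC) of the pigs that lived with topsoil were profiled for microRNA (miRNA) at 11 and at 20 days of age, both while the soil was still being supplied. The comparison holds 10 small RNA libraries, 5 at day 11 and 5 at day 20, out of 39 small RNA libraries and 75 libraries of both RNA types in all. They were chosen by the treatment and age in the column names of the count table (topsoil pigs 1 to 5), so that each pig is its own reference. The pigs were synthetic Large White piglets. The topsoil piglets received fresh soil every day from day 4 to day 20 of life, the end of lactation, and the control piglets were reared conventionally in farrowing crates without soil. Weaning was at day 20 in both treatments. Blood was drawn from each pig at each age, and mononuclear cells were separated on a density gradient. The 16 libraries of 8 control pigs at the same ages are used only to ask whether a change belongs to the topsoil pigs. Both treatments share the breed and the ages of sampling. Within the topsoil pigs, growing older and longer soil contact cannot be told apart.

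The sample characteristics given to the repository disagree with the sample descriptions. Of the 10 topsoil libraries, the characteristics gave the same treatment as the description in 2, the same age in 1, and both in 0. The descriptions match the column names, and groups were taken from them. Every value below depends on that choice.

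miRNAs are short RNAs of about the length of the sequences printed here that are cut from hairpin precursors and loaded into Argonaute proteins. The bases from position 2 to position 8, the seed, pair with target messenger RNAs, whose translation and stability then drop, so that miRNAs with the same seed have overlapping targets. In blood, several miRNAs mark the cell of origin. miR-486, miR-451 and miR-144 are made in red blood cell precursors and stay in mature erythrocytes, miR-150 and miR-342 are lymphocyte miRNAs, miR-223 belongs to granulocytes and monocytes, and miR-142 is made in all leukocytes.

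No miRNA differed between day 11 and day 20 in the topsoil pigs once the tests were adjusted. With a false discovery rate of 0.10 as the threshold, 0 of 209 miRNAs with enough reads passed (0.0%) by edgeR's quasi-likelihood F test with pig as a block and Benjamini-Hochberg adjustment, and the smallest adjusted p was 1. A single miRNA, miR-532-3p, had an unadjusted p under 0.05. At the same settings the fitted fold change was above 0 for 86 miRNAs, below 0 for 122 and at 0 for 1. The median log2 fold change was -0.08. Scaling by total counts moved that median to -0.29 and the split to 58 above and 150 below, and the split turned the other way with a stricter filter on low counts, with 79 above and 61 below (median 0.043), and without pig 4, with 111 above and 97 below (median 0.037). Counts above and below 0 are to be read beside these medians. DESeq2 and limma voom called 0 miRNAs as well, and each had 5 at an unadjusted p under 0.05.

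The sequences below belong to the miRNAs that the values turn on. They were read from the Sscrofa11.1 genome at the RefSeq positions of 179 of the 209 miRNAs. Lower case marks the mature sequence, and capitals mark the seed. The first set holds the 3 red blood cell miRNAs, of which miR-486 dominated every library and miR-451 had the smallest p for a difference between the treatments.
miR-486: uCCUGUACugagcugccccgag
miR-451: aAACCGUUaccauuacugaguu
miR-144: uACAGUAUagaugauguac
miR-486 lies at chr17:10758868-10758889 on the minus strand, in an intron of ANK1, the ankyrin gene of the red cell membrane skeleton, in the same orientation. miR-451 (chr12:45088838-45088859) and miR-144 (chr12:45088968-45088986) lie side by side on the minus strand, opposite to an intron of ERAL1. Among the 179 miRNAs with a sequence, each of the 3 seeds was carried by 1.

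The second set holds miRNAs that stood out among the 5 pigs by the smallest p or by moving the same way in every pig.
miR-532-3p: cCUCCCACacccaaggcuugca
miR-132: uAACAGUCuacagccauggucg
miR-29c: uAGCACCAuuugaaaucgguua
miR-10a-5p: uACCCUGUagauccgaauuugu
miR-361-5p: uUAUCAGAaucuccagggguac
miR-532-3p is at chrX:43705309-43705330 on the plus strand and miR-361-5p at chrX:68924553-68924574 on the minus strand, in an intron of CHM. miR-132 is at chr12:48162635-48162656 and miR-10a-5p at chr12:24833694-24833715, both on the minus strand, and miR-29c is at chr9:135019691-135019712 on the plus strand. RefSeq places these last 3 and miR-532-3p outside other genes. miR-1271-5p also belongs to this set.

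The third set holds abundant miRNAs of 2 seed families, let-7 and miR-181.
let-7f-5p: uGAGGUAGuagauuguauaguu
let-7a: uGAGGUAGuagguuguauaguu
let-7i-5p: uGAGGUAGuaguuugugcu
miR-181a: aACAUUCAacgcugucggugaguu
miR-181b: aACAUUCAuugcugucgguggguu
The let-7 seed GAGGUAG was shared by 8 of the 179 miRNAs with a sequence and the miR-181 seed ACAUUCA by 4. let-7a, let-7f-5p, miR-181a and miR-181b each have 2 copies in the genome with the same mature sequence, so that their counts cannot be assigned to a copy.

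The fourth set holds miRNAs that passed the test in control pigs but did not pass in topsoil pigs, other than miR-451.
miR-19b: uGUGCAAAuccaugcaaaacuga
miR-19a: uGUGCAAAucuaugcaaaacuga
let-7d-5p: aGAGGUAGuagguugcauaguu
miR-21-5p: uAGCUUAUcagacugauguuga
miR-101: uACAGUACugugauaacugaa
miR-30e-5p: uGUAAACAuccuugacuggaagcu
miR-19a and miR-19b share the seed GUGCAAA and come from the miR-17-92 cluster on chr11, at chr11:60734987-60735009 and chr11:60735289-60735311, and miR-19b has a further copy on chrX. let-7d-5p carries the let-7 seed of the third set.

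The total of the 10 libraries, with 1 table entry kept for each mature name, was between 9099478 and 13494765 counts. miR-486 took most of them. In pigs 1 to 5 it held 95.2%, 88.9%, 89.8%, 85.4% and 76.1% of the counts at day 11, and 94.6%, 74.0%, 89.2%, 95.5% and 85.8% at day 20. The share was 14.9 percentage points lower at day 20 in pig 2, 10.1 points higher in pig 4 and 9.71 points higher in pig 5. In pigs 1 and 3 it moved by less than 1 percentage point, and the days overlapped. The mean difference was 0.730 percentage points (SD 10.2, n = 5 pigs), with an exact paired permutation p of 1 (two-sided, and 0.0625 is the smallest p that 5 pairs allow).

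**Figure D1:**
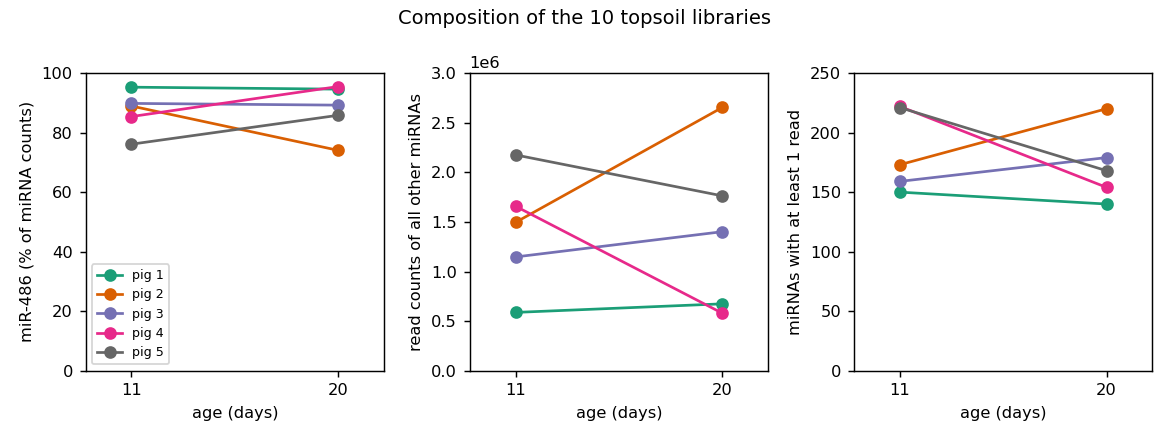
Composition of the 10 topsoil libraries at 11 and 20 days of age, with 1 line per pig and no error bars since each point is 1 library. The left axis is the percent of miRNA counts that were miR-486, the middle axis the summed read counts of the rest, and the right axis how many miRNAs were seen at least once. The lines cross, and pig 2 went down to 74.0% miR-486 while pig 4 went up to 95.5%.

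The counts left for all other miRNAs set the depth of every comparison. They were 588185, 1495525, 1147038, 1657521 and 2174817 at day 11 in pigs 1 to 5. At day 20 they were 674615, 2653312, 1401397, 579876 and 1762319. Pig 4 thus kept 0.350 times and pig 2 had 1.77 times the earlier number. The number of miRNAs with at least 1 read was 150, 173, 159, 222 and 221 at day 11 and 140, 220, 179, 154 and 168 at day 20, so pigs 1, 4 and 5 showed fewer and pigs 2 and 3 more at the later age. The exact paired permutation p was 1 for the other counts and 0.562 both for library total and for miRNAs seen, and all 4 measures had an adjusted p of 1.

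Of the markers, miR-486 and miR-451 were abundant in every library, and the leukocyte miRNAs miR-142-5p and miR-150 were present at mean normalised read counts of 11591 and 21255 over the 10 libraries. A normalised read count is a count divided by the scaled size of its library and multiplied by the geometric mean of that size over the 39 libraries. Of the 27 arms of the tissue-restricted list, 13 had no read in the 10 libraries, among them liver miR-122, striated muscle miR-1, miR-133a and miR-206 and neuronal miR-124a, and 14 had reads, led by miR-192, miR-378, miR-9 and miR-375 at mean normalised read counts of 2083, 514, 236 and 184. The 8 tested arms of that list summed to normalised read counts of 1900 to 4335 at day 11 and 1662 to 4075 at day 20. Of the 10 arms of the vascular, smooth muscle and platelet list, 5 had no read, both arms of the smooth muscle miRNA miR-145 among them, and 5 had reads, led by miR-143-3p at 68.6 to 2643 per library. Those 5 summed to 344.6 to 2688 at day 11 and 116.9 to 2339 at day 20. In bulk RNA, fewer cells of a type and less RNA per cell cannot be told apart, and the share of red cell miRNA in PBMC depends on how many red cells stayed in the preparation. The part of that carry-over and of other cells in the differences below was not tested.

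The miRNA with the smallest p was miR-532-3p, one arm of a hairpin of the miR-188 cluster on chrX. Its counts at day 11 were 26 in pig 1, 58 in pig 2, 0 in pig 3, 3 in pig 4 and 24 in pig 5. At day 20 it had 0 counts in all 5 pigs. Summed, it went from 111 counts to 0. With 3 counts as the limit over the 5 libraries of a day, the pooled counts were at least 37.1-fold lower. This bound covers counting error only and leaves out the spread between pigs. The edgeR fit, which holds that spread, gave a log2 fold change of -7.39, with a confidence interval from -13.1 to -1.64. Without pig 2, a setting chosen after seeing the data, 53 counts remained at day 11 and the bound was 12.3-fold. The unadjusted p was 0.0140 and the adjusted p was 1 by edgeR's quasi-likelihood test. The group ranges overlapped because pig 3 had no read at either age, and in control pigs the fitted log2 fold change was -0.50, with an unadjusted p of 0.832. The miRNA miR-504 was alike in form, with 31 counts in pig 2 and 6 in pig 4 at day 11 and 0 in all other libraries of both days. No bound is given for it, since 31 of its 37 counts were those of pig 2.

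The miRNAs with higher values at day 20 and the smallest p were miR-1271-5p, miR-132, miR-10a-5p, miR-29c, miR-191 and miR-342. miR-132, which is induced by CREB and in leukocytes by inflammatory signals, had 0, 0, 24, 6 and 25 counts at day 11 in pigs 1 to 5 and 37, 49, 49, 16 and 39 at day 20. It was higher at day 20 in all 5 pigs after scaling. The log2 fold change was 3.08 (SE 1.56, unadjusted p 0.0589, adjusted p 1 by edgeR). miR-29c, of the miR-29 family that represses collagen messages and DNA methyltransferases, had 1, 0, 0, 20 and 40 counts and then 14, 60, 15, 11 and 52. It too was higher in all 5 pigs after scaling, by a log2 fold change of 3.29 (SE 1.93, unadjusted p 0.0997). The days overlapped for both, since the highest day 11 library stood above the lowest day 20 library. In control pigs miR-132 and miR-29c were each higher at day 20 in 5 of 8, with log2 fold changes of 1.39 and 1.20. The differences between the treatments had an unadjusted p of 0.504 and 0.382 by edgeR.

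Only 3 miRNAs were higher at day 20 in all 5 pigs, miR-132, miR-29c and miR-28-5p, which is 1.44% of the 209. The last had at most 12 counts in any of the 10 libraries. Only miR-361-5p was lower at day 20 in all 5 pigs, 0.478% of the 209. It was also the only miRNA whose 5 normalised read counts at day 11 all lay outside the range of the 5 at day 20, again 0.478%. Its normalised read counts were 209.0, 335.2, 214.1, 213.2 and 194.6 at day 11 and 92.6, 194.3, 181.8, 185.1 and 139.0 at day 20. The log2 fold change was -0.57 (SE 0.59) with an unadjusted p of 0.337 by edgeR, and the lowest value at day 11 exceeded the highest at day 20 by less than 1 normalised read count. In control pigs it was higher at day 20 in 5 of 8. It was singled out for the lack of overlap after its values were seen, as were miR-28-5p and the arms in the marker check.

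**Figure D2:**
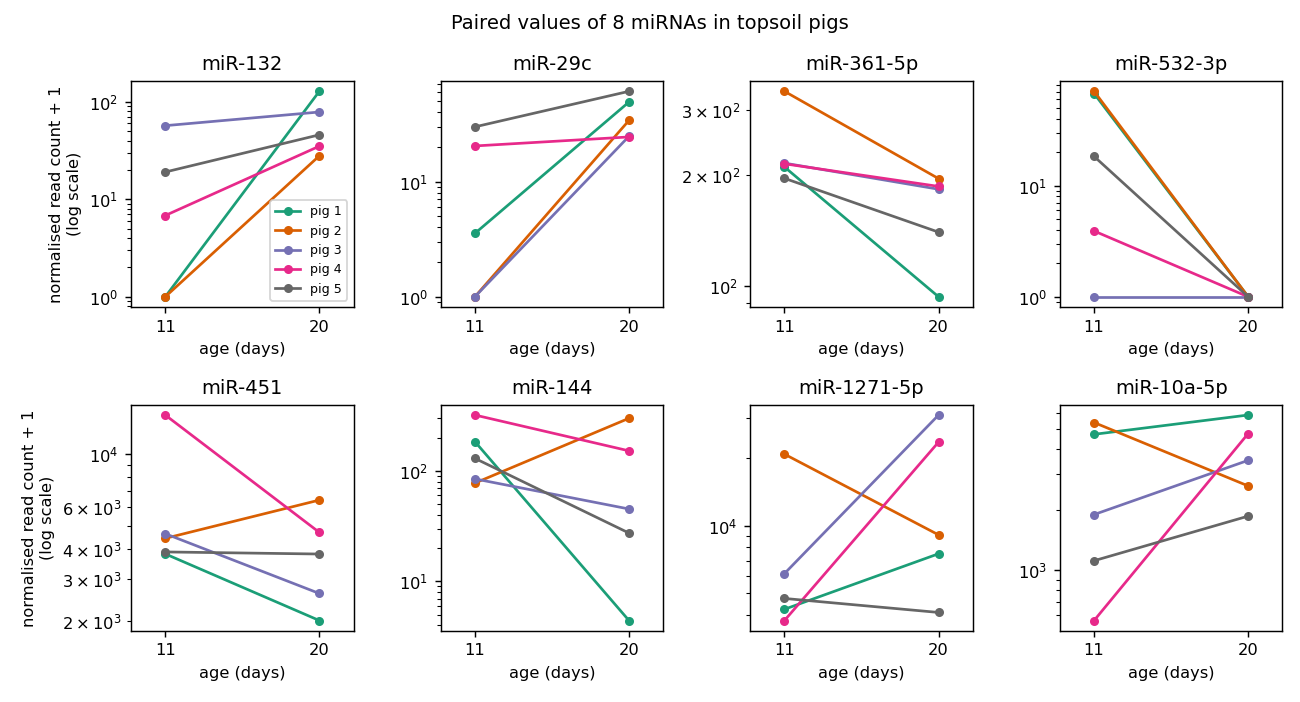
Normalised read counts plus 1, on a log axis, of 8 miRNAs in topsoil pigs at 11 and 20 days of age, with 1 line per pig and 1 library per point. miR-132 and miR-29c are higher at day 20 in each pig, miR-361-5p is lower in each pig and miR-532-3p is without reads at day 20, while for the other 4 at least 1 pig goes the other way.

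Among the miRNAs with more reads, miR-1271-5p had normalised read counts of 4250, 20774, 6124, 3789 and 4749 at day 11 and 7501, 9098, 31002, 23509 and 4114 at day 20. Pigs 1, 3 and 4 were higher at day 20 and pigs 2 and 5 lower, and the days overlapped. The log2 fold change was 0.89 (SE 0.44, 95% confidence interval -0.02 to 1.79, unadjusted p 0.0540). Without topsoil pig 2 the log2 fold change was 1.41 and the miRNA passed the threshold, the single call that leaving out a pig gave in this comparison of days. miR-10a-5p, encoded in the HOXB cluster, had normalised read counts of 4717, 5397, 1889, 564 and 1116 and then 5879, 2618, 3506, 4760 and 1856. It was lower in pig 2 and higher in the other 4 pigs, with a log2 fold change of 0.76 (SE 0.42, unadjusted p 0.0862).

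The remaining miRNAs with higher values and the smallest p were less clear. miR-191 had a log2 fold change of 0.50 (SE 0.35) and was higher in 4 pigs. miR-342, carried in an intron of EVL, had 0.60 (SE 0.43) and was higher in 4 pigs. The related miR-99a-5p and miR-99b had 0.91 (SE 0.69) and 0.82 (SE 0.70). miR-375, a miRNA of endocrine and epithelial cells, had 1.66 (SE 1.33), but the sign changed when either pig 3 or pig 5 was left out, and the normalised read counts of these 2 pigs at day 20 were 1277 and 388 against at most 3.4 in the other 3. miR-128 had 0.71 (SE 0.63) and was higher in 4 pigs.

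Among the miRNAs with lower values at day 20 was miR-1306-5p, which overlaps an exon of DGCR8, a gene of the complex that cuts miRNA precursors. It was present at day 11 in all 5 pigs at normalised read counts from 34.9 to 50.4. At day 20 it was at 0 in pigs 1, 4 and 5 and at 23.1 and 47.4 in pigs 2 and 3. The log2 fold change was -3.78 (SE 2.11, unadjusted p 0.0844). miR-425-3p, whose hairpin lies with that of miR-191 in an intron of DALRD3, lay between normalised read counts of 61.2 and 143.4 at day 11, and at day 20 was 0 in pigs 1 and 4 and 47.8, 66.4 and 132.1 in pigs 2, 3 and 5. Its log2 fold change was -2.11 (SE 1.31), against 0.35 (SE 0.48) for the other arm of the same hairpin, miR-425-5p. Neither arm passed the test. The other miRNAs with lower values, miR-4331-5p, miR-183, miR-126-5p and miR-660, had log2 fold changes of -1.24, -1.43, -2.56 and -0.98, with unadjusted p from 0.212 to 0.246.

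The red blood cell miRNAs did not move as 1 group. None of the 3 passed the test. miR-451, which is cut by Argonaute 2 in place of Dicer, had normalised read counts of 3825, 4439, 4642, 14508 and 3896 at day 11 and 2017, 6411, 2615, 4701 and 3819 at day 20. It was lower in pigs 1, 3, 4 and 5 and higher in pig 2. The log2 fold change was -0.58 (SE 0.34, 95% confidence interval -1.27 to 0.11, unadjusted p 0.0979, adjusted p 1 by edgeR). miR-144, transcribed with miR-451, was 183.5, 76.6, 83.8, 319.8 and 129.0 and then 3.4, 298.6, 44.3, 151.0 and 26.4. It was again higher only in pig 2, with a log2 fold change of -1.40 (SE 0.92). miR-486 had a log2 fold change of 0.24 (SE 0.63), and was lower in pigs 2 and 3 and higher in pigs 1, 4 and 5. In pig 2, therefore, miR-486 was lower while miR-451 and miR-144 were higher, and in pigs 1, 4 and 5 the reverse was measured.

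The abundant miRNAs gave the tightest estimates. For the 52 miRNAs with a mean normalised read count of at least 1000, the 95% confidence interval of the log2 fold change extended by a median of 0.68 on either side. For 38 of the 52, the whole interval lay within a 2-fold change up or down. The 157 others had a median half-width of 3.20, and the interval stayed within 2-fold for 8 of them. Those 8 include miR-424-3p, which had no read in the 10 libraries, so that its interval of no width is not an estimate. Between the abundant miRNAs, 25 of 52 had a fitted value above 0, and the log2 fold changes lay between -0.58 (miR-451) and 0.89 (miR-1271-5p). For the 14 other abundant miRNAs and for 149 of the 157 rarer ones the interval included changes larger than 2-fold.

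**Figure D3:**
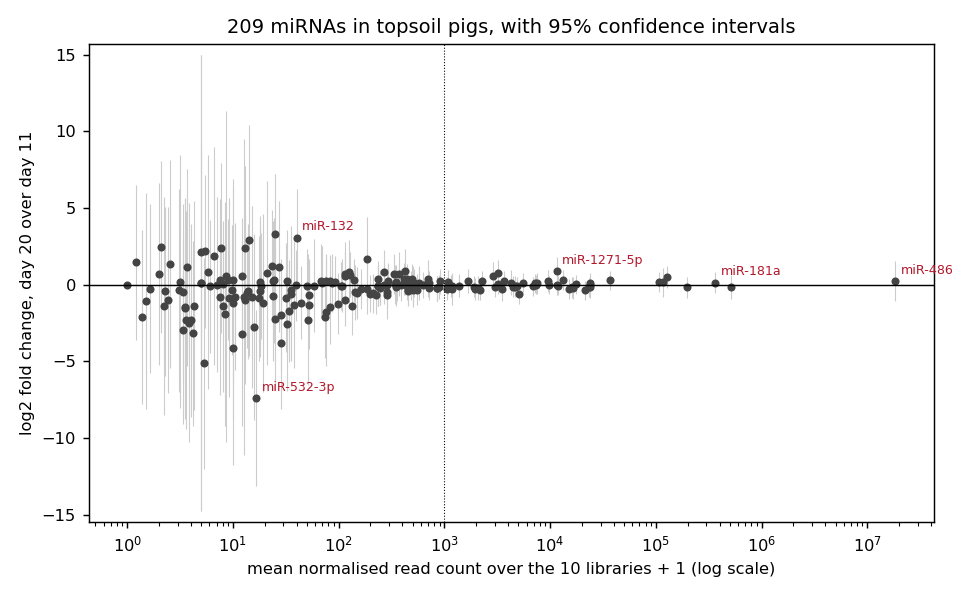
Log2 ratio of day 20 over day 11 in topsoil pigs against the mean normalised read count plus 1 of the 10 libraries, on a log axis. Points are the 209 miRNAs, vertical bars are 95% confidence intervals from the edgeR fit, and the dotted line marks a mean of 1000. Bars are mostly wider left of the dotted line, with a median half-width of 3.20 against 0.68 to the right of it, where miR-486 is an exception with an interval from -1.06 to 1.54, and right of the line all points lie between -0.58 and 0.89.

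let-7f-5p, let-7a and let-7i-5p, of the let-7 family that represses proliferation genes and is abundant in differentiated cells, had log2 fold changes of -0.15 (SE 0.39), -0.18 (SE 0.35) and 0.19 (SE 0.31). let-7f-5p held 19.1% to 36.3% of the counts other than miR-486 at day 11 and 20.4% to 35.3% at day 20. Its normalised read count was higher at day 20 in pigs 1 and 5 and lower in the other 3. Of the 10 let-7 family members tested, 0 passed, 5 were above 0 and 5 below, and the median log2 fold change was 0.02 beside -0.08 for all 209 miRNAs. The family median was below 0 with TMM scaling (-0.0026), with total counts (-0.18), with all 39 libraries (-0.063), without pig 1 (-0.068) and without pig 5 (-0.088), and it was 0.27 over the 9 members left by the stricter filter.

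miR-181a, which tunes T cell receptor sensitivity in developing T cells, held 13.9% to 22.1% of the counts other than miR-486 at day 11 and 14.0% to 32.4% at day 20. Its normalised read counts were 330981, 306970, 490111, 223165 and 308894 at day 11 and 510665, 265396, 717760, 172211 and 337890 at day 20. After scaling it was higher in pigs 1, 3 and 5 and lower in pigs 2 and 4, as was miR-181b. These directions depended on the scaling. As a share of the counts other than miR-486, miR-181a was 22.1%, 17.1%, 18.4%, 13.9% and 19.7% at day 11 in pigs 1 to 5. At day 20 it was 22.1%, 18.2%, 32.4%, 14.0% and 16.7%. The log2 fold changes of miR-181a and miR-181b were each 0.14, and 0 of 4 family members passed. The 4 members had a median of 0.14, which was -0.041 with total counts and -0.0092 without pig 1.

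Of the lymphocyte miRNAs, miR-150 had a log2 fold change of -0.35 (SE 0.30) and was lower in 4 of 5 pigs, while miR-342 had the positive value given above. For leukocytes in general, miR-142-5p was at 0.01 (SE 0.33) and miR-142-3p at -0.16 (SE 0.59), and the myeloid miR-223 was at 0.39 (SE 0.58). miR-142-5p was higher in pig 2, by a log2 difference of 1.02, and lower in pig 4, by -1.19, in opposite directions. None of these 5 arms passed.

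Among the inflammation-related miRNAs, 5 of 6 tested arms were above 0 and 0 passed, with a median of 0.11. Their best-measured members were near 0, with miR-21-5p, a miRNA of activated leukocytes, at 0.03 (SE 0.30) and miR-146a-5p, a brake on NF-kB signalling, at -0.10 (SE 0.31). miR-155-5p, needed for B and T cell responses, had a mean normalised read count of only 7 and a log2 fold change of 0.02 (SE 0.86). With total counts, without pig 1 and without pig 3, 3 of the 6 were above 0, and with RNA quality added 2 were, with a median of -0.0057. The median was 0.015 without pig 3 and 0.69 without pig 5.

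The miR-17-92 cluster and its paralogs, which favour lymphocyte growth and survival, had 11 tested members, 6 above 0 and 5 below, with a median of 0.00. That split rested on single pigs, since without pig 2 it was 1 above and 10 below (median -0.36) and without pig 4 it was 9 above and 2 below (median 0.23). It was 2 above and 9 below with total counts, with RNA quality added and without the pig block. miR-92a was even between the days, at normalised read counts of 27077, 21158, 19541, 26335 and 23891 at day 11 and 25302, 23694, 24650, 26104 and 18419 at day 20. Its log2 fold change was 0.00 (SE 0.29), and miR-92b-3p had 0.29 (SE 0.32). In the miR-15 and miR-16 family, which restrains the cell cycle and BCL2, miR-16 had -0.21 (SE 0.35) and miR-15b -0.15 (SE 0.37), and miR-15a -0.028 (SE 0.46). The fourth tested arm, miR-424-3p, had no read in any of the 10 libraries. Without pig 4 the other 3 arms were above 0.

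The miR-23, miR-27 and miR-24 clusters were the only list of more than 4 arms in which all tested members, 6 of 6, had a fitted value below 0. The 6 were also below 0 with TMM, total counts and total counts without miR-486, and with total counts the 5 arms of the vascular, smooth muscle and platelet list were below 0 as well. None of the 6 passed, the median was -0.34, and miR-27b-3p and miR-27a had -0.26 (SE 0.32) and -0.08 (SE 0.36). The direction did not hold throughout, since 2 of 6 were above 0 when RNA quality was added to the fit and without pig 2, and 1 was without pig 3 and without pig 4. The largest were miR-23b and miR-24-3p, at -0.70 (SE 1.16) and -0.68 (SE 0.59).

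Of the miR-99, miR-100, miR-125 and miR-10 list, 6 of 8 arms were above 0 and 0 passed, with a median of 0.26, and 5 of 8 were above 0 with each of the other 3 scalings. Without pig 4, 3 of 8 were above 0 with a median of -0.25, and without pig 2 the median was 0.86. With limma voom 4 of 8 were above 0 and the median was -0.034. miR-10b, with the same seed as miR-10a-5p, was at -0.09 (SE 0.65), and its normalised read counts were lower in pigs 1, 2 and 3 and higher in pigs 4 and 5. The miR-30 family had 3 of 9 arms above 0 (6 of 9 without pig 4), miR-30d at -0.07 (SE 0.30) and miR-30a-5p at -0.02 (SE 0.30). In the miR-26 and miR-29 list 3 of 6 were above 0 (1 of 6 without pig 3 and with RNA quality added), with miR-26a at 0.09 (SE 0.32) and miR-26b-5p at -0.29 (SE 0.35). In the list of miR-103, miR-107, miR-191, miR-423 and miR-425, 3 of 7 were above 0 (5 of 7 without pig 4), and miR-423-5p had 0.29 (SE 0.31). miR-222 and miR-221-3p had 0.21 (SE 0.38) and -0.06 (SE 0.45).

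In the miR-183 cluster, miR-182 varied widely between pigs, with normalised read counts of 132759, 230391, 137614, 13017 and 83749 at day 11 and 260760, 58450, 87374, 64486 and 90569 at day 20. It was higher in pigs 1, 4 and 5 and lower in pigs 2 and 3, with a log2 fold change of 0.15 (SE 0.45). Of the vascular, smooth muscle and platelet list, 5 arms were tested. The 2 above 0, miR-199a-3p and miR-199b-3p, had the same count in every library, at a mean normalised read count of 3.99 and a log2 fold change of 0.11 (SE 7.23), and with total counts, DESeq2 and limma voom 0 of 5 were above 0. Without a pig the median of the list lay between -1.20 and 0.97. miR-143-3p, made in smooth muscle and fibroblasts, was at -0.26 (SE 0.51). Of the tissue-restricted list 8 arms passed the limits on low counts and 19 did not. miR-192 and miR-378, its best-measured members, had -0.23 (SE 0.38) and 0.11 (SE 0.46). miR-148a-3p, which is in no list, had -0.16 (SE 0.33). None of the members of these lists passed the test.

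The 5 pigs did not follow a common course. Of the 209 miRNAs, 93 were higher and 66 lower at day 20 in pig 1, and in pig 4 the numbers were 55 higher and 147 lower. Pig 2 had 116 higher and 84 lower. Of the 52 abundant miRNAs, 41 were higher in pig 1, 24 in pig 2, 20 in pig 3, 12 in pig 4 and 29 in pig 5. These numbers hold for normalised read counts and depend on the scaling. In pig 1 the counts other than miR-486 rose from 588185 to 674615, while the scaled library size fell from 3624820 to 2692990. As a share of those counts in pig 1, let-7a fell from 10.9% to 9.24%, although its normalised read count rose. The share of miR-191 rose from 7.22% to 9.48%. As a description across these 52 miRNAs, which share their libraries and scaling and are not independent, Spearman's rho between the changes of pig 2 and pig 4 was -0.74 and that between pig 2 and pig 5 was -0.45. The other 8 pairs of pigs gave values from -0.32 to 0.34.

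The opposite courses of pigs 2 and 4 ran through many lists. In pig 2 the median log2 difference of the 3 myeloid and pan-leukocyte arms was 1.35, and in pig 4 it was -1.19. For the miR-17-92 members the medians were 1.06 and -0.66, with 9 of 11 higher in pig 2 and 1 of 11 higher in pig 4. The miR-99, miR-100, miR-125 and miR-10 list went the other way, with -1.40 in pig 2 and 2.05 in pig 4, as did the lymphocyte pair, with -1.39 and 1.02. miR-16 differed by 1.17 in pig 2 and -1.51 in pig 4, while miR-486 differed by -1.79 and 1.47. The share of miR-486 and the counts of other miRNAs given above moved in opposite directions in these 2 pigs as well, and their part in these differences was not tested.

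**Figure D4:**
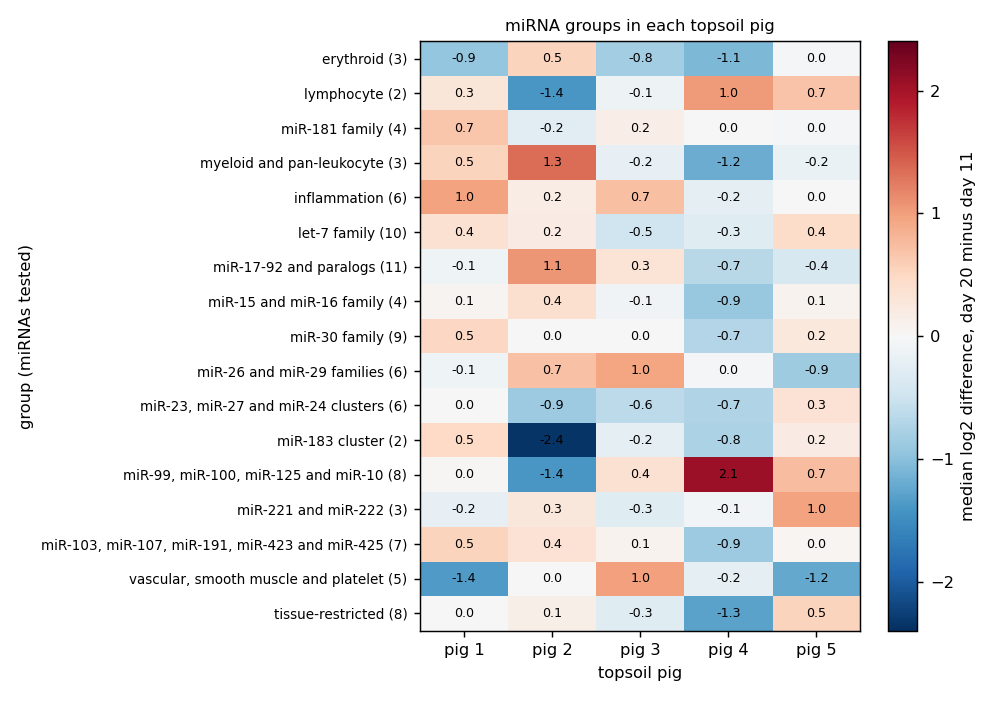
Median log2 difference between day 20 and day 11 of each miRNA group in each topsoil pig, with the number of tested miRNAs of the group in parentheses and colour from blue (lower at day 20) to red (higher). Columns for pigs 2 and 4 have opposite signs for the myeloid and pan-leukocyte, miR-17-92, lymphocyte and miR-99, miR-100, miR-125 and miR-10 groups.

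Control pigs of the same ages served to ask whether any change was particular to topsoil. Across 26 libraries, 7 of 209 miRNAs (3.35%) passed between day 11 and day 20 in the 8 control pigs, all of them higher at day 20, and 36 had an unadjusted p under 0.05. The extra change of topsoil pigs, which is the log2 fold change in topsoil pigs minus that in control pigs, passed for 0 miRNAs (0.0%) by the edgeR interaction test, and 16 had an unadjusted p under 0.05, of which 13 were below 0. Without topsoil pig 2 it passed for 5 miRNAs, miR-144, miR-19b, miR-30e-5p, miR-342 and miR-451, and without topsoil pig 4 for 0, with 4 at an unadjusted p under 0.05. The median over the 209 log2 fold changes was 0.35 in control pigs, and the median extra change was -0.53, so single values are to be read beside these.

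The 7 miRNAs that rose in control pigs were miR-19b, miR-451, let-7d-5p, miR-21-5p, miR-101, miR-19a and miR-30e-5p. miR-19b had the smallest p there, with a log2 fold change of 1.45 (SE 0.30, adjusted p 0.00976 by edgeR), and was higher in 8 of 8 control pigs. In topsoil pigs it was at 0.14 (SE 0.38), with normalised read counts of 6047, 1109, 1917, 7129 and 5709 at day 11 and 3183, 4685, 2556, 3778 and 6640 at day 20, so that 3 pigs were higher and 2 lower. The difference between the treatments was -1.31 (SE 0.49, unadjusted p 0.0121, adjusted p 0.600). miR-30e-5p was at 0.93 in control pigs and -0.31 in topsoil pigs, and the difference of -1.24 (SE 0.46) had an adjusted p of 0.600 by the same edgeR test. Without topsoil pig 2 the differences were -1.75 for miR-19b and -1.56 for miR-30e-5p, with adjusted p of 0.0355 and 0.0845 by edgeR. Without topsoil pig 4 they shrank to -1.02 and -0.82, each with an adjusted p of 0.914 by edgeR.

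**Figure D5:**
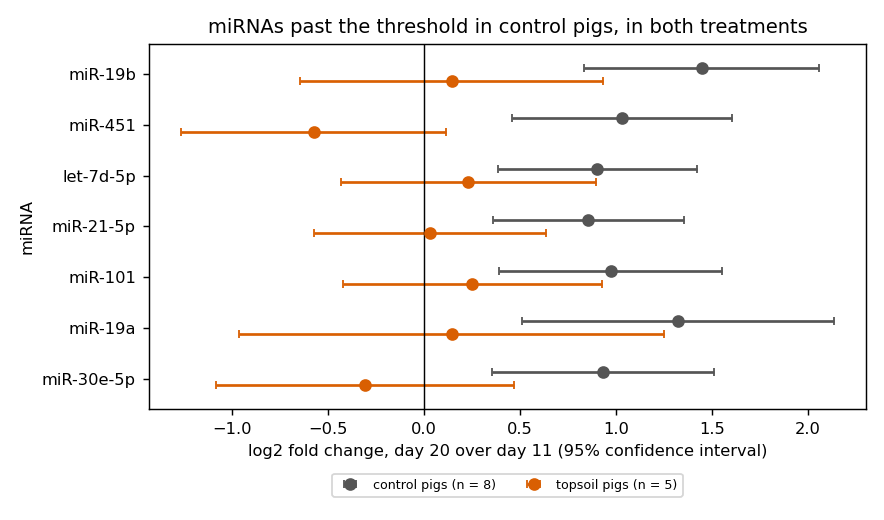
Log2 ratio of day 20 over day 11 for the 7 miRNAs that passed the threshold in control pigs, for 8 control pigs (grey) and 5 topsoil pigs (orange), with 95% confidence intervals from the edgeR fits. All grey intervals lie above 0 and all orange intervals include 0.

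miR-451 gave the smallest p for the extra change. It was higher at day 20 in 7 of 8 control pigs, by a log2 fold change of 1.03 (SE 0.28, adjusted p 0.0800 by edgeR), and lower in 4 of 5 topsoil pigs. The extra change was -1.61 (SE 0.45, 95% confidence interval -2.53 to -0.69, unadjusted p 0.00131, adjusted p 0.274). It passed at the false discovery rate of 0.10 without topsoil pig 2, at -1.88, and without control pig 8, at -1.80, and it passed when miRNAs with few reads were kept in. Without topsoil pig 4 it was -1.35, with an adjusted p of 0.914 by edgeR. miR-144, from the same transcript, was higher in 8 of 8 control pigs and lower in 4 of 5 topsoil pigs, with an extra change of -2.62 (SE 1.04, unadjusted p 0.0176, adjusted p 0.600), which without topsoil pig 2 was -3.37 with an adjusted p of 0.0845 by edgeR. Without topsoil pig 1 the extra change of miR-144 was -1.90, with an adjusted p of 0.710 by edgeR. The third red cell miRNA went the other way, since miR-486 had a log2 fold change of -1.11 in control pigs and an extra change of 1.36 (SE 1.02, unadjusted p 0.195).

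Other miRNAs with an unadjusted p under 0.05 for the extra change were mostly ones that were higher in control pigs. They were miR-660, miR-26b-5p, miR-103, miR-22-3p, miR-21-5p, miR-16, let-7g, miR-7144-5p and miR-148b-3p, all with values below 0, and miR-342, miR-99b and miR-9841-3p above 0. miR-26b-5p, for example, was at 0.71 in control pigs and -0.29 in topsoil pigs, a difference of -0.99 (SE 0.39). miR-342 was at -0.69 and 0.60, a difference of 1.29 (SE 0.57). All of these had an adjusted p of 0.600 by the edgeR interaction test, and miR-342 passed without topsoil pig 2, at 1.82 with an adjusted p of 0.0442. Without topsoil pig 4 the value of miR-342 was 0.86, with an adjusted p of 0.914 by the same test. The libraries of the 8 control pigs also differed in composition, since the miR-486 share was lower at day 20 in 6 of 8 control pigs, by a mean of -9.97 percentage points (SD 18.7, exact paired permutation p 0.180). The part of that shift in the extra changes was not tested.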

How the data were processed

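The authors isolated PBMC RNA, sequenced 50-bp single-end small RNA libraries, and trimmed reads with Trim Galore 0.4.5 after FastQC 0.11.3. Reads were assigned with miRDeep2 on Sscrofa11.1, whose version is not given in the sources used here. The authors deposited raw read counts per mature miRNA and precursor, without normalization. The second deposited table, of mRNA, was not used. The table has 479 entries for 457 mature names, and the entry with most reads represents a name. A miRNA was tested (209) if at least 17 of 39 libraries had a read and the mean exceeded 2 reads, which left out 248. Counts were scaled by the upper quartile (75%) over 39 libraries and fitted in R 4.3.3 with edgeR 4.0.16 with pig as a block, as the same animals were bled at both ages. Within-pig deviations correlated by -0.03 to 0.13. Alternatives used limma 3.58.1 and DESeq2 1.42.0. Permutation tests were exact. The fits were tested on simulated data. PCR reads carry no molecular identifiers, so limits for 0 counts cover counting error only, whereas the intervals of the fits also hold the spread between pigs.

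Named miRNAs were the 10 higher and 10 lower with the smallest p, the 10 most abundant, the 3 with the smallest p of the extra change, and the 2 most abundant of each of 17 lists. The members, lists and tests were chosen with earlier results of these data known. RNA quality index values of the study entered only an alternative. Sequences are from RefSeq (Sscrofa11.1).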

Additional observations from a re-analysis of the deposited data

Results flagged for a closer look

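Groups of 5 values were searched for a library far from the others, over 4 library measures at each age and the changes of the 52 named miRNAs (60 groups in all). These are not the 52 abundant miRNAs. A chance rate of about 1 in 20 gives 3 such cases, and 2 were found. The library of topsoil pig 2 at day 20 had the lowest total at that age, 10216475 counts, and the next was 12415424. The change of miR-4331-5p was -6.91 on the log2 scale in topsoil pig 1, which had no read at day 20, and the next lowest was -1.38.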

How the results depend on the processing

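The direction and side of the threshold held in most of the alternatives, and no count of calls in topsoil pigs reached more than 1. Without a pig, the number of miRNAs called in topsoil pigs was between 0 and 1 (miR-1271-5p, without pig 2). The extra change had 1 call with no filter on low counts, and between 0 and 5 without a pig (5 without topsoil pig 2: miR-144, miR-19b, miR-30e-5p, miR-342 and miR-451, and 1, miR-451, without control pig 8). The fits without the replicate block called 0 miRNAs in topsoil pigs, with 2 at an unadjusted p under 0.05, and 0 for the extra change, so the block changed no call. The mean difference in miR-486 share ranged from -1.61 to 4.63 percentage points without a pig. The causes were not tested.

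The sign of small fold changes was not stable. With total counts the log2 fold changes were let-7i-5p -0.018, miR-181b -0.042, miR-181a -0.040, miR-19b -0.23, miR-182 -0.049, miR-26a -0.092, miR-378 -0.051, miR-21-5p -0.20, miR-142-5p -0.24 and miR-92a -0.22. With RNA quality added they were miR-192 0.057, let-7a 0.088, miR-143-3p 0.069, let-7f-5p 0.13, miR-19b -0.18, miR-146a-5p 0.030, miR-26a -0.011, miR-27a 0.11, miR-10b 0.45, miR-21-5p -0.0038, miR-142-5p -0.092 and miR-92a -0.10. Without the replicate block they were miR-19b -0.072, miR-182 -0.089 and miR-26a -0.0079. With all 39 libraries they were miR-19b -0.086, miR-21-5p -0.0029, miR-142-5p -0.0084 and miR-92a -0.071. TMM gave miR-142-5p -0.018 and miR-92a -0.019. Total counts without miR-486 gave miR-142-5p -0.018 and miR-92a -0.0039. DESeq2 gave miR-30a-5p 0.012.

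Without a pig, the ranges that crossed 0 were miR-375 -0.30 to 3.16, miR-30e-5p -0.63 to 0.11, miR-192 -0.52 to 0.021, miR-16 -0.55 to 0.12, miR-222 -0.028 to 0.43, let-7a -0.37 to 0.023, miR-143-3p -0.81 to 0.36, miR-148a-3p -0.46 to 0.074, miR-181b -0.060 to 0.30, miR-15b -0.25 to 0.016, let-7f-5p -0.40 to 0.089, miR-486 -0.089 to 0.71, miR-19b -0.30 to 0.43, miR-182 -0.37 to 0.67, miR-142-3p -0.57 to 0.38, miR-26a -0.063 to 0.35, miR-30d -0.22 to 0.14, miR-27a -0.23 to 0.066, miR-378 -0.13 to 0.39, miR-10b -0.69 to 0.57, miR-21-5p -0.085 to 0.18, miR-30a-5p -0.15 to 0.16, miR-142-5p -0.25 to 0.30 and miR-92a -0.081 to 0.10. The median of all miRNAs was 0.04 without pig 4. With the stricter filter on low counts, the medians of the miR-17-92, miR-30, miR-26 and miR-29, inflammation and miR-99, miR-100, miR-125 and miR-10 lists were 0.16, 0.025, 0.076, 0.27 and 0.48. In all, 769 of 849 checked values kept direction and side of the threshold. Depth limits the rare miRNAs most, and 1 tested miRNA, miR-424-3p, had no read in any of the 10 libraries.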
